A study of Homo sapiens with 21 samples.

Results

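The 9 genes described here encode the enzymes that make serine and pass its one-carbon unit through folate: PHGDH, PSAT1, PSPH, SHMT1, SHMT2, MTHFD1, MTHFD2, MTHFD1L and ALDH1L2. They were chosen by name, and each was found as 1 of the 66738 genes of the count table. The cells were RS4;11, an established human B-cell precursor acute lymphoblastic leukaemia line with a KMT2A-AFF1 fusion. For 24 h the cells were starved of asparagine while given ferric nitrate (10 µM) together with hinokitiol (0.75 µM), an iron-carrying small molecule (-Asn+Fe), starved of asparagine (-Asn), or kept in complete medium (+Asn). The labels do not say whether the other 2 media also held hinokitiol, so iron and hinokitiol cannot be told apart. RNA and H3K4me3, a histone mark of active promoters, were each read in 3 libraries per medium. Of the 19279 merged H3K4me3 regions, 10 were assigned to these genes.

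Serine is made from the glycolytic intermediate 3-phosphoglycerate in 3 steps: PHGDH oxidises it, PSAT1 adds an amino group and PSPH removes the phosphate. SHMT2 in mitochondria and SHMT1 in the cytosol then split serine into glycine and a one-carbon unit carried by tetrahydrofolate. In mitochondria MTHFD2 and MTHFD1L turn that unit into formate, which the cytosolic enzyme MTHFD1 takes up again for nucleotide synthesis, while ALDH1L2 oxidises 10-formyl-tetrahydrofolate to carbon dioxide. Several of these genes are textbook targets of ATF4, the transcription factor of the amino acid response, and MTHFD2 and SHMT2 are known for high levels in proliferating leukaemia cells.

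Promoter windows, from 250 bases before to 50 bases after an annotated start, were available in the RefSeq table (GRCh38.p14) for 6 of the 9 genes. The 4 shown cover genes whose RNA rose (PSAT1, MTHFD2, MTHFD1L) and one whose RNA fell (MTHFD1), and all lie on the plus strand. They are chr9:78296875-78297174 for PSAT1, chr2:74198365-74198664 for MTHFD2, chr6:150866197-150866496 for MTHFD1L and chr14:64388103-64388402 for MTHFD1. Capitals mark the motif letters described below.
PSAT1: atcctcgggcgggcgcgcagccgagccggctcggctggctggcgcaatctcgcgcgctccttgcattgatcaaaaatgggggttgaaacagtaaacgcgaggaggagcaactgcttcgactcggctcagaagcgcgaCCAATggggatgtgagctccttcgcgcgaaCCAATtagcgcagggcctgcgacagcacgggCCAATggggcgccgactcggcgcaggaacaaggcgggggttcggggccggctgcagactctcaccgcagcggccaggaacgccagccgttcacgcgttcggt
MTHFD2: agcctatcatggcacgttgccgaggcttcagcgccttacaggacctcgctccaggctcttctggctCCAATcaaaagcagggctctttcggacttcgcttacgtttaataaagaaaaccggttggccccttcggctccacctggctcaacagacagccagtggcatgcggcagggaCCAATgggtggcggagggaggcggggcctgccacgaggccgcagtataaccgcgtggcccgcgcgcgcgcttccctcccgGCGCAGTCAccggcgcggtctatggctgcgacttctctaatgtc
MTHFD1L: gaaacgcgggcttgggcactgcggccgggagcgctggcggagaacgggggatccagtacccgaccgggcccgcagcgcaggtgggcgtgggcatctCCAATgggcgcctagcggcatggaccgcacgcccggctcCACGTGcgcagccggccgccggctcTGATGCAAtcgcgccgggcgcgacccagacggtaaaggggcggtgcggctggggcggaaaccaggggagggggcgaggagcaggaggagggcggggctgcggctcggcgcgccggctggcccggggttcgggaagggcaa
MTHFD1: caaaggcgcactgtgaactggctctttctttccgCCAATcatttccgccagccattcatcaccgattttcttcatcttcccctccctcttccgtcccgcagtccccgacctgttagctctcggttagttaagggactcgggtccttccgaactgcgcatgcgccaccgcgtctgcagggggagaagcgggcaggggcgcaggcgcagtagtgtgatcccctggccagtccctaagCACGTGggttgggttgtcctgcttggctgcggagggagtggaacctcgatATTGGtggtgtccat

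Motif letters were searched on both strands. TGATGNAA, the C/EBP-ATF response element, was found in the MTHFD1L window shown as TGATGCAA, at bases -90 to -83 from that window's start. It was in no window of the other 5 genes. The element is held by 3.62% of the 35116 windows in the table, and by a window of 4.46% of its 27305 genes. MTHFD1L has 4 windows in the table, and the same TGATGCAA lies in 3 of them because they overlap. Its position depends on the window: -129 to -122 in another, and 25 to 32, after the start, in the third. The E-box CACGTG was found in MTHFD1L (-115 to -110 in the window shown) and in MTHFD1 (-15 to -10), against 7.26% of all windows and 8.77% of genes. The antioxidant element TGACNNNGC was found on the reverse strand of the MTHFD2 window (bases 7 to 15 after the start), against 13.3% of all windows and 16.1% of genes. The E2F letters TTTGGCGC and TTTCGCGC were in none of the 6 genes' windows, against 1.15% of all windows and 1.4% of genes. CCAAT, which was searched last and after the other results were known, was in a window of each of the 6 genes, in 3 places for PSAT1, against 39.7% of the 27305 genes in the table and 34.6% of all windows. MTHFD1L's window was 75.7% G or C, against a median of 58.7% over the table, and the letters of a motif depend on base composition.

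The RNA libraries held between 29362707 and 42478518 counts. Of 9 precursor B-cell markers, all 9 averaged at least 1 CPM (read counts scaled to a common library size with TMM factors) in each medium, and their summed level was 2183 to 2266 CPM in -Asn+Fe, 2457 to 2551 CPM in -Asn and 2692 to 2784 CPM in +Asn. None of the 3 T-cell, 3 myeloid, 3 erythroid or 3 epithelial markers reached that level. Of 3 fibroblast markers, 2 did, at a summed 24.96 to 25.88 CPM in -Asn+Fe, 30.67 to 36.48 CPM in -Asn and 40.42 to 45.07 CPM in +Asn, and their part in the results was not tested. Replicate 1 of -Asn stood apart: set against replicates 2 and 3 it gave a chi-square per degree of freedom of 40.3 and 44.6, while those 2 gave 6.14 against each other. Whether a medium was applied to separate cultures is not in the labels, and the p-values rest on library-to-library spread that may be technical. In whole-culture RNA, fewer cells with an RNA and less RNA per cell cannot be told apart. Values with ± are means with the SD over 3 libraries. The share of all genes or regions whose groups did not overlap is not given here. Non-overlap therefore only describes the libraries of the gene or region named.

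The first comparison asks what 24 h without asparagine did to these enzymes. All 3 enzymes of serine synthesis and 3 of the 4 mitochondrial enzymes were higher in -Asn than in +Asn, by 1.64- to 2.99-fold. The 2 cytosolic enzymes that act on folate were lower, by 3.19-fold for SHMT1 and 2.46-fold for MTHFD1. In total 8 of the 9 genes were called, where 61.2% of the 17939 genes tested were: 6 rose, where 31% were called higher, and 2 fell, where 30.2% were called lower (edgeR, adjusted p under 0.05). The median log2 fold change of the 9 was 0.89, against 0.04 over all genes tested. ALDH1L2 alone did not pass the test.

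**Figure D1:**
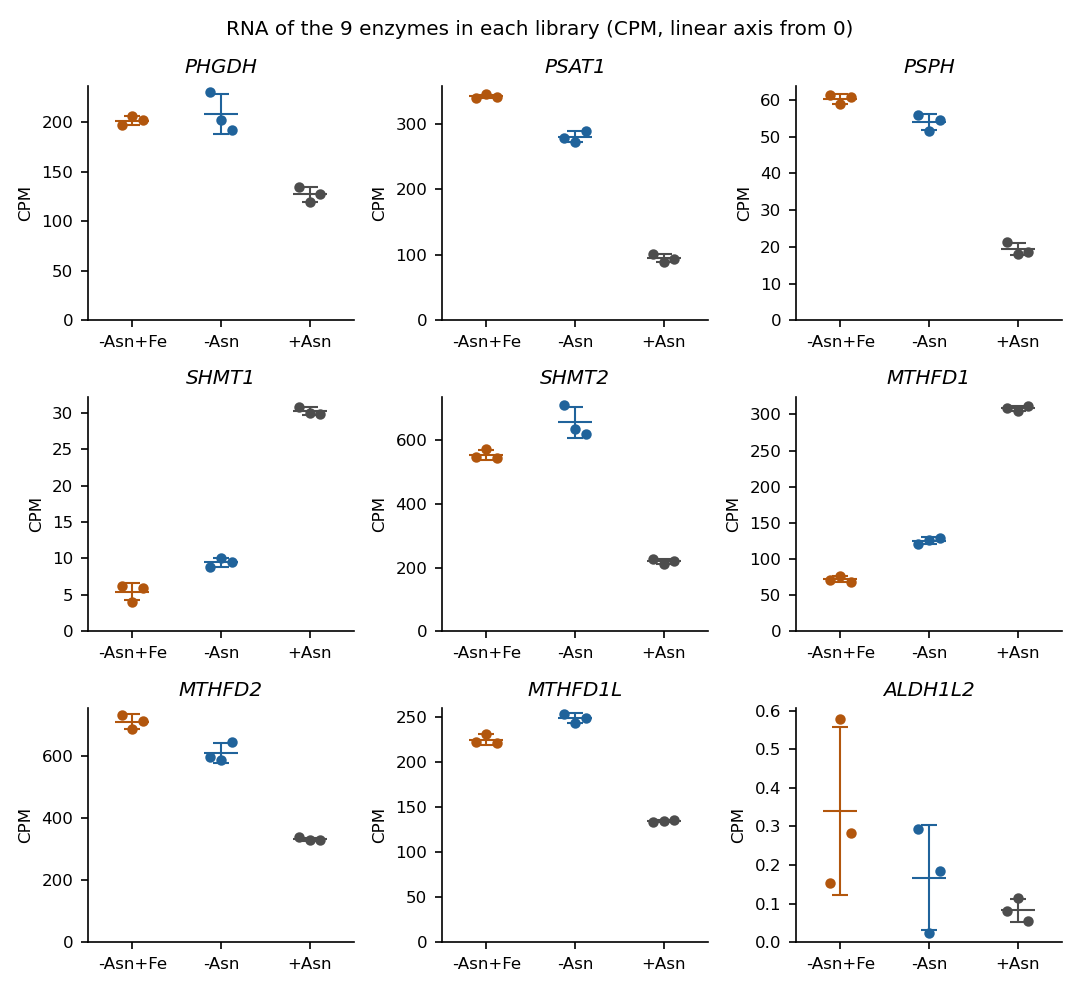
RNA level of each enzyme (CPM, linear axis from 0) in -Asn+Fe, -Asn and +Asn. Points are the 3 libraries of a medium, and the bar is their mean with the SD. In -Asn, PSAT1 averaged 279.7 CPM against 94.7 CPM in +Asn, and MTHFD1 126 CPM against 308 CPM.

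PHGDH, the first enzyme of serine synthesis (ENSG00000092621.12, chr1:119648411-119744226 of hg38, plus strand), was at 231, 202 and 192 CPM in -Asn and 134, 119 and 127 CPM in +Asn. The highest -Asn value came from the library that stood apart, and the media did not overlap without it either. The log2 fold change was 0.71 (SE 0.0767, adjusted p = 4.88e-07). PSAT1, the aminotransferase (ENSG00000135069.14, chr9:78297125-78330093, plus strand), was at 278, 272 and 289 CPM in -Asn and 102, 89.3 and 93.2 CPM in +Asn. It rose 2.95-fold, a log2 fold change of 1.56 (SE 0.0686, adjusted p = 7.92e-12). All 3 -Asn libraries lay well above the +Asn libraries. PSPH, the phosphatase that ends the pathway (ENSG00000146733.14, chr7:56011051-56051604, minus strand), was at 56.0, 51.6 and 54.4 CPM in -Asn and 21.4, 18.2 and 18.7 CPM in +Asn. The media did not overlap, and PSPH rose by a log2 fold change of 1.47 (SE 0.0776, adjusted p = 7.11e-11).

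SHMT2, the mitochondrial serine hydroxymethyltransferase (ENSG00000182199.11, chr12:57229573-57234935, plus strand), was at 711, 637 and 620.4 CPM in -Asn and 228, 211 and 220.4 CPM in +Asn. It rose 2.99-fold (log2 1.58, SE 0.0732, adjusted p = 1.54e-11), close to PSAT1, and the order of the 2 turned without -Asn replicate 1, the library that stood apart (log2 1.515 for SHMT2 and 1.564 for PSAT1). SHMT1, its cytosolic counterpart (ENSG00000176974.20, chr17:18327860-18363563, minus strand), moved the other way. SHMT1 was at 8.78, 10.1 and 9.54 CPM in -Asn and 30.8, 30.0 and 29.8 CPM in +Asn, which is 1154 counts in all for -Asn and 3257 for +Asn. SHMT1 fell by 1.67 on the log2 scale (SE 0.118, adjusted p = 2.77e-09), with no overlap between the media.

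MTHFD2, the mitochondrial methylene-tetrahydrofolate dehydrogenase (ENSG00000065911.12, chr2:74198610-74217565, plus strand), was at 598, 587 and 647 CPM in -Asn and 339, 329 and 329 CPM in +Asn. MTHFD1L, which releases formate from mitochondrial 10-formyl-tetrahydrofolate (ENSG00000120254.15, chr6:150865549-151101887, plus strand), was at 254, 243 and 249.2 CPM in -Asn and 133, 134 and 136 CPM in +Asn. Neither pair of groups overlapped, and the log2 fold changes were close, 0.88 for MTHFD2 (SE 0.0684, adjusted p = 9.23e-09) and 0.89 for MTHFD1L (SE 0.0616, adjusted p = 2.26e-09). MTHFD1, which carries 3 activities of the cytosolic folate cycle in one protein (ENSG00000100714.17, chr14:64388031-64463457, plus strand), was at 121, 126 and 129 CPM in -Asn and 309, 305 and 312 CPM in +Asn. It fell by 1.30 on the log2 scale (SE 0.0662, adjusted p = 4.96e-11), and the media did not overlap.

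ALDH1L2 (ENSG00000136010.14, chr12:105019784-105107643, minus strand) was close to the detection limit in all 3 media. It had 11, 1 and 8 counts in the -Asn libraries and 3, 4 and 2 counts in the +Asn libraries. The ranges overlapped, and the fitted log2 fold change of 0.96 had an SE of 0.801 (adjusted p = 0.316), so a difference of this size was not detectable at this depth. It entered the test through the 3 libraries in which it was highest.

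**Figure D2:**
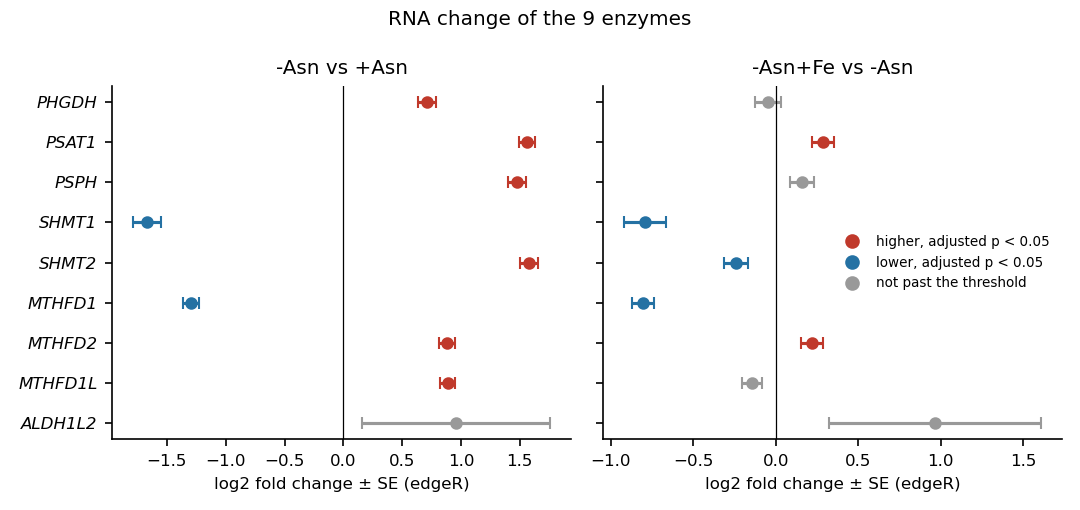
log2 fold change with its SE (edgeR, 3 libraries per medium) for -Asn over +Asn on the left and -Asn+Fe over -Asn on the right; the 2 axes have different ranges. SHMT1 and MTHFD1 lie left of 0 in both panels, at -1.67 and -1.30 and at -0.79 and -0.80.

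The second comparison asks how starved cells in -Asn+Fe differed from those in -Asn. It shares the -Asn libraries with the first one. From here on, iron stands for the -Asn+Fe medium, which held ferric nitrate together with hinokitiol. MTHFD1 and SHMT1 were lower with iron, by 1.74-fold and 1.73-fold, while the other changes were 1.22-fold or less for the genes above the detection limit. Of the 9 genes 5 were called, where 30.8% of all genes tested were. They were 2 that rose (PSAT1 and MTHFD2), where 14% were called higher, and 3 that fell (MTHFD1, SHMT1 and SHMT2), where 16.8% were called lower. The median log2 fold change was -0.05, against -0.01 over all genes.

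MTHFD1 was at 70.9, 76.7 and 68.6 CPM in -Asn+Fe, against 126 ± 4.25 CPM in -Asn. It fell by 0.80 on the log2 scale (SE 0.0663, adjusted p = 1.55e-07), and every -Asn+Fe library was below every -Asn library. SHMT1 was at 6.22, 4.08 and 5.96 CPM in -Asn+Fe, or 281, 127 and 210 counts, against 9.47 ± 0.659 CPM in -Asn. Replicate 2 was the lowest, and the media did not overlap (log2 -0.79, SE 0.128, adjusted p = 2.08e-04). Both calls held in every alternative tried.

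PSAT1 was at 339, 344 and 341 CPM in -Asn+Fe, against 279.7 ± 8.52 CPM in -Asn, and rose by a log2 fold change of 0.29 (SE 0.0666, adjusted p = 0.00367). MTHFD2 was at 734, 687 and 714 CPM in -Asn+Fe, against 611 ± 32.2 CPM in -Asn, and rose by 0.22 (SE 0.0678, adjusted p = 0.0212). SHMT2 was at 548, 572 and 545 CPM in -Asn+Fe, against 656 ± 48.4 CPM in -Asn, and fell by 0.24 on the log2 scale (SE 0.0714, adjusted p = 0.0167). None of these 3 pairs of groups overlapped, but none of the changes passed a test against a 1.2-fold change (edgeR's glmTreat, adjusted p = 0.454, 0.824 and 0.705). The SHMT2 call was also lost without -Asn+Fe replicate 1 or replicate 3 (adjusted p = 0.0752 and 0.0686), with upper-quartile factors (0.0525) and when only these 2 media were fitted (0.0526), and the MTHFD2 call once replicate 2 of -Asn (adjusted p = 0.0822) or replicate 1 or 3 of -Asn+Fe (0.0717 and 0.0693) was left out.

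The other 4 genes did not pass the test with iron. PHGDH was at 196, 206 and 202 CPM in -Asn+Fe, against 208 ± 20.3 CPM in -Asn, and the groups overlapped (log2 -0.05, SE 0.0761, adjusted p = 0.679, with the sign turned under 3 alternatives and without -Asn replicate 1). PSPH was at 61.3, 58.8 and 60.8 CPM in -Asn+Fe, against 54.0 ± 2.21 CPM in -Asn (log2 0.16, SE 0.0738, adjusted p = 0.115). MTHFD1L was at 223, 232 and 221 CPM in -Asn+Fe, against 248.8 ± 5.36 CPM in -Asn (log2 -0.14, SE 0.0609, adjusted p = 0.0848). For PSPH and MTHFD1L the groups did not overlap, and the PSPH call appeared without -Asn replicate 1, the library that stood apart (adjusted p = 0.0401), and with library totals, upper-quartile factors or a stricter low-count filter (0.0475, 0.0349 and 0.0282). ALDH1L2 had 7, 18 and 10 counts in -Asn+Fe, against 11, 1 and 8 in -Asn, with overlapping ranges (adjusted p = 0.275).

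The third comparison sets starved cells with iron against complete medium, and shares its libraries with the other two. Of the 9 genes 7 were called higher in -Asn+Fe, where 32.9% of genes tested were called higher, and 2 lower, where 31.9% were (64.7% in either direction). The 7 include ALDH1L2, which entered the test through starved libraries and whose call rests on few counts. MTHFD1 averaged 72.0 ± 4.17 CPM in -Asn+Fe and 308 ± 3.42 CPM in +Asn, a 4.28-fold lower level (log2 -2.10, SE 0.0681, adjusted p = 1.07e-13). SHMT1 averaged 5.42 ± 1.17 CPM in -Asn+Fe and 30.2 ± 0.529 CPM in +Asn, 5.52-fold lower (log2 -2.46, SE 0.125, adjusted p = 3.07e-11). No library of one medium reached the other for either gene.

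PSAT1 averaged 341 ± 2.56 CPM in -Asn+Fe and 94.7 ± 6.30 CPM in +Asn, 3.60-fold higher (log2 1.85, SE 0.0691, adjusted p = 6.15e-13). PSPH followed with a log2 fold change of 1.63, SHMT2 with 1.34, MTHFD2 with 1.10, MTHFD1L with 0.74 and PHGDH with 0.67, all with groups that did not overlap. ALDH1L2 was called higher (log2 1.92, SE 0.738, adjusted p = 0.0309) from 35 counts in all for -Asn+Fe and 9 for +Asn. That call was lost without any 1 of the +Asn libraries (adjusted p = 0.0832, 0.0528 and 0.102 without replicates 1, 2 and 3), without -Asn+Fe replicate 2 (0.158) and without -Asn+Fe replicate 3 (0.0515).

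The order of the RNA levels also differed between the media. Levels between genes were set side by side as CPM per kb, using the file's gene length, which counts every annotated exon base. That length is 2206 bases for PSAT1 and 12208 bases for MTHFD1, and the order of the genes depends on it. In -Asn+Fe PSAT1 was first at 155 ± 1.16 CPM per kb, followed by MTHFD2 at 148 ± 4.90 and SHMT2 at 121 ± 3.25. In -Asn SHMT2 was first at 143 ± 10.5, and PSAT1 at 127 ± 3.86 and MTHFD2 at 127 ± 6.68 lay within each other's spread. In +Asn the order was MTHFD2 at 68.9 ± 1.15, SHMT2 at 47.8 ± 1.81, PSAT1 at 42.9 ± 2.86, MTHFD1L at 26.8 ± 0.277 and MTHFD1 at 25.3 ± 0.281. PHGDH and PSPH lay within each other's spread in -Asn+Fe, at 21.8 ± 0.497 and 21.8 ± 0.466 CPM per kb, while in +Asn PHGDH was at 13.8 ± 0.833 and PSPH at 7.03 ± 0.621. SHMT1 and ALDH1L2 were lowest in every medium, at 0.745 ± 0.160 and 0.0357 ± 0.0229 CPM per kb in -Asn+Fe, 1.30 ± 0.0906 and 0.0176 ± 0.0143 in -Asn, and 4.15 ± 0.0726 and 0.00883 ± 0.00313 in +Asn.

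Within a library, the ratio of a mitochondrial enzyme to its cytosolic partner needs no scaling between libraries. Per kb, SHMT2 RNA was 139.5, 222 and 145 times SHMT1 RNA in -Asn+Fe, 128, 100.1 and 103 times in -Asn, and 11.7, 11.2 and 11.7 times in +Asn. The +Asn libraries stood far below the rest, and -Asn+Fe replicate 2, where SHMT1 was lowest, was far above. The ratio of MTHFD1L to MTHFD1 was 7.64, 7.35 and 7.85 in -Asn+Fe, 5.10, 4.68 and 4.68 in -Asn, and 1.05, 1.07 and 1.06 in +Asn. The ratio of MTHFD2 to MTHFD1 was 26.2, 22.7 and 26.3 in -Asn+Fe, 12.5, 11.8 and 12.7 in -Asn, and 2.78, 2.73 and 2.67 in +Asn. The level of each ratio depends on the gene lengths, while its fold between media does not. Without gene length, MTHFD1L to MTHFD1 was 0.432, 0.441 and 0.437 in +Asn, and MTHFD2 to MTHFD1 was 1.10, 1.08 and 1.06. In all 3 ratios the -Asn+Fe libraries were highest and the +Asn libraries lowest, with no overlap between any 2 media. As geometric means, SHMT2 to SHMT1 was 9.53-fold higher in -Asn than in +Asn and 1.502-fold higher in -Asn+Fe than in -Asn. MTHFD1L to MTHFD1 was 4.54-fold and 1.58-fold higher, and MTHFD2 to MTHFD1 4.51-fold and 2.03-fold higher, in the same 2 comparisons. Each of the 9 exact two-sided permutation tests gave p = 0.1 (0.1 after adjustment over the 9), the smallest that 3 libraries against 3 allow.

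**Figure D3:**
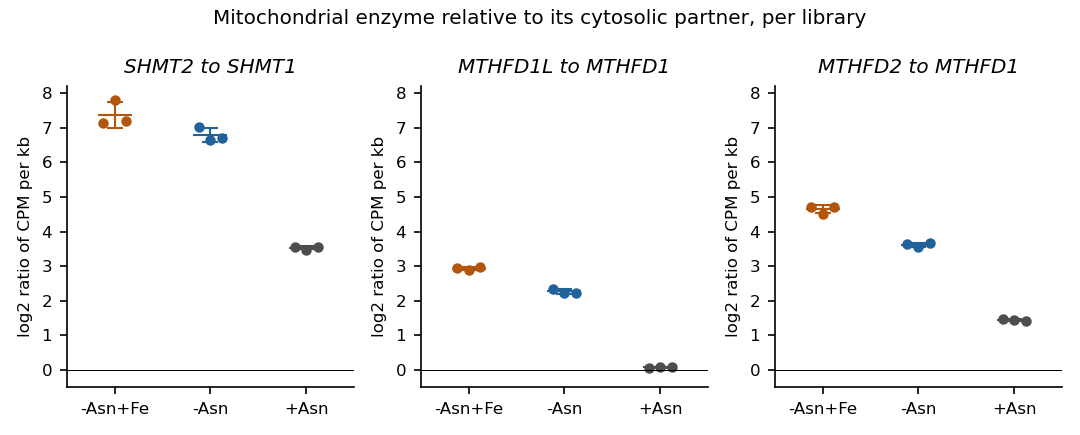
log2 ratio of CPM per kb of a mitochondrial enzyme to its cytosolic partner, by library, in -Asn+Fe, -Asn and +Asn, with mean and SD. The MTHFD1L to MTHFD1 ratio averaged 2.93 in -Asn+Fe, 2.27 in -Asn and 0.09 in +Asn on this log2 scale.

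The H3K4me3 data are positions of called regions, with no heights, so they tell where and how widely the mark was called and not how strongly. Of the 9 genes, 8 had a region within 1 kb of their outermost annotated 5′ end. All 8 regions were called in all 9 libraries, as were 13883 of the 19279 regions of the table. PHGDH had none there. Its region, chr1:119711453-119714935, lay at the RefSeq start (position 119711934), where an exon carries 14 different annotated 5′ ends. PSPH had a second region inside the gene, chr7:56032469-56035050, over an exon with 6 different annotated 5′ ends between positions 56034103 and 56034172. These 2 regions were added after the positions had been seen.

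The comparison of -Asn with +Asn asks whether the called regions changed in width. SHMT2's region and the inner PSPH region were each 1.59 times as wide in -Asn, and those of MTHFD2, PHGDH and PSAT1 were 1.197 to 1.27 times as wide. Of the 8 regions at outermost 5′ ends, 3 passed the test (SHMT2, MTHFD2 and PSAT1, limma, adjusted p under 0.05), where 16.1% of the 13883 regions called in all libraries did. All 3 were wider, where 14.6% of the table was called wider and 1.45% narrower. The median region of the table was wider by 0.086 on the log2 scale. Libraries also differed in the number of regions called. There were 17206, 15891 and 16384 in -Asn+Fe, 15554, 17448 and 16507 in -Asn, and 15141, 15230 and 14741 in +Asn. Median widths over the 13883 regions were, in the same order, 1780, 1690 and 1723, 1677, 1840 and 1761, and 1665, 1672 and 1619 bases. Sequencing depth is not given here, and its part in the widths was not tested.

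SHMT2's region, chr12:57228751-57231862, covered 2682, 2999 and 2883 bases in -Asn and 1867, 1846 and 1674 bases in +Asn (log2 0.67, SE 0.0614, adjusted p = 1.09e-04). Both edges lay further out in -Asn: 765 to 822 bases upstream of the 5′ end, against 262 to 395 bases in +Asn, and 1916 to 2215 bases downstream, against 1411 to 1486 bases. The inner PSPH region covered 2260, 2582 and 2156 bases in -Asn and 1460, 1522 and 1412 bases in +Asn (log2 0.67, SE 0.0686, adjusted p = 2.35e-04). There only the downstream edge separated the media, at 1375 to 1703 bases past the outermost 5′ end of the exon in -Asn and 590.0 to 790.0 bases in +Asn. The upstream edge overlapped, at 780.0 to 878 bases in -Asn and 731 to 821 bases in +Asn. Both width calls held in every alternative tried.

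PHGDH's region covered 2691, 3133 and 3086 bases in -Asn and 2410.0, 2338 and 2501 bases in +Asn (log2 0.29, SE 0.0639, adjusted p = 0.0136). The call was lost without -Asn replicate 2 (adjusted p = 0.0525) or replicate 3 (0.0559). PSAT1's region, chr9:78296377-78299158, covered 2500.0, 2618 and 2622 bases in -Asn and 2242, 2298 and 1940.0 bases in +Asn (log2 0.26, SE 0.0649, adjusted p = 0.0239). MTHFD2's region, chr2:74198050-74201233, covered 2388, 3103 and 3006 bases in -Asn and 2067, 2340.0 and 2237 bases in +Asn (log2 0.35, SE 0.0947, adjusted p = 0.0336). None of the 3 pairs of groups overlapped, and the lowest -Asn value of each was replicate 1, the -Asn library with the fewest regions called. The PSAT1 call was lost with each library centred on its median width (log2 0.17, adjusted p = 0.0718) and without -Asn replicate 2, -Asn replicate 3 or +Asn replicate 3 (adjusted p = 0.0744, 0.0781 and 0.0602). The MTHFD2 call was lost without -Asn replicate 2, -Asn replicate 3, +Asn replicate 1 or +Asn replicate 3 (adjusted p = 0.119, 0.114, 0.103 and 0.0832).

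**Figure D4:**
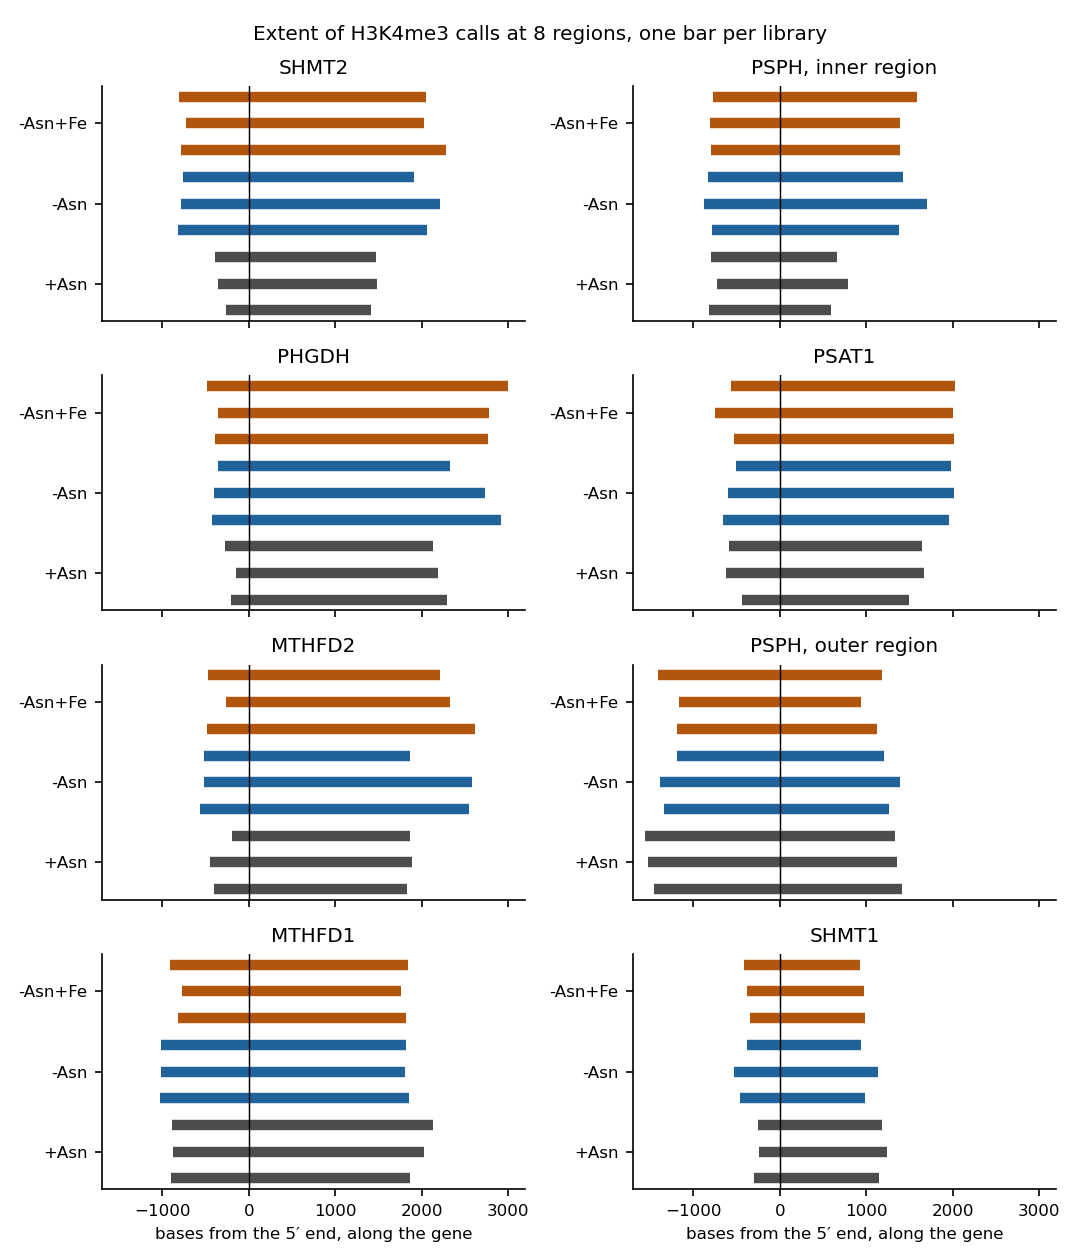
Extent of the H3K4me3 call in each library at 8 regions of 7 genes, in bases from the 5′ end along the direction of the gene (0 is the outermost annotated 5′ end, the RefSeq start for PHGDH, and the outermost 5′ end of the exon for the inner PSPH region). Each bar is 1 library, drawn from its first to its last called base, with -Asn+Fe above -Asn and +Asn. SHMT2's bars reach 765 to 822 bases upstream in -Asn and 262 to 395 bases in +Asn.

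The regions of the 2 genes whose RNA fell did not pass the test. MTHFD1's region, chr14:64386999-64390168, covered 2852 ± 27.2 bases in -Asn and 2899 ± 129 bases in +Asn (log2 -0.02, adjusted p = 0.758). SHMT1's region, chr17:18362327-18364092, covered 1481 ± 176 bases in -Asn and 1454 ± 18.3 bases in +Asn (log2 0.02, adjusted p = 0.883). Both pairs of groups overlapped. MTHFD1L's region, chr6:150865213-150867633, covered 2235 ± 39.7 bases in -Asn and 2158 ± 54.9 bases in +Asn (log2 0.05, adjusted p = 0.452), although its RNA was called higher.

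The outer PSPH region, chr7:56050192-56053160, also holds the annotated start of CCT6A, a chaperonin subunit gene on the opposite strand. The region covered 2594 ± 194 bases in -Asn and 2881 ± 12.7 bases in +Asn (log2 -0.15, adjusted p = 0.175, but 0.0116 with each library centred on its median width). CCT6A RNA fell in -Asn, to 130.1 CPM against 268 CPM in +Asn (log2 -1.04, adjusted p = 7.71e-10), while PSPH RNA rose. The region at the outermost 5′ end of ALDH1L2, chr12:105107016-105110617, likewise holds the start of WASHC4, and covered 3469 ± 191 bases in -Asn and 3368 ± 173 bases in +Asn (log2 0.04, adjusted p = 0.583). No region lay within 1 kb of the RefSeq start of ALDH1L2 (position 105084458).

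A small region upstream of SHMT2, chr12:57226913-57227506, was called in 1 of 3 -Asn+Fe libraries, 3 of 3 -Asn libraries and 0 of 3 +Asn libraries. Over the table, 2.86% of the 19279 regions were called in 3 of 3 -Asn and 0 of 3 +Asn libraries. The region downstream of SHMT2, chr12:57238149-57242035, holds the start of NDUFA4L2 and was wider in -Asn than in +Asn (log2 0.86, limma adjusted p = 1.20e-04). So was the region downstream of MTHFD1, chr14:64464600-64466062, which holds the start of AKAP5 (log2 0.27, limma adjusted p = 0.0182). Of all regions tested, 14.6% were called wider. AC137834.2, a long noncoding RNA gene annotated on the strand opposite to SHMT2, starts inside SHMT2's region, as TEX21P does in MTHFD1's and AC073263.2 in MTHFD2's. AC137834.2 had 31, 9 and 25 counts in -Asn+Fe, 28, 40 and 34 counts in -Asn, and 2, 1 and 0 counts in +Asn. It entered the RNA test only through starved libraries, where it was high, so no p-value is given for it. The strand setting of the counting is not given, so reads of this gene and of SHMT2 cannot be told apart, and it was picked after its position had been seen.

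With iron added to starved cells, none of the 10 regions of these genes passed the width test, and none of the 13883 regions of the table did either (0% called, limma). At an unadjusted p under 0.05 there were 1042 regions, or 7.51%. The log2 differences between -Asn+Fe and -Asn ran from -0.15 at the outer PSPH region to 0.14 at PHGDH, where the width was 3260.3 ± 193 bases in -Asn+Fe and 2970.0 ± 243 bases in -Asn (unadjusted p = 0.0583). SHMT2's region covered 2862, 2757 and 3074 bases in -Asn+Fe, within 0.02 of -Asn on the log2 scale (SE 0.0614). MTHFD1's region was 2646 ± 108 bases wide in -Asn+Fe and 2852 ± 27.2 bases in -Asn, with groups that did not overlap (log2 -0.11, unadjusted p = 0.0343, adjusted p = 0.618).

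Between -Asn+Fe and +Asn, 3 of the 8 regions passed, where 13.6% of the table did, 11.7% as wider and 1.92% as narrower. SHMT2's (log2 0.69, SE 0.0614, adjusted p = 9.55e-05) and PSAT1's (log2 0.24, SE 0.0649, adjusted p = 0.0373) were wider in -Asn+Fe. The outer PSPH region was narrower, at 2593, 2112 and 2311 bases in -Asn+Fe and 2892, 2883 and 2867 bases in +Asn (log2 -0.31, SE 0.0737, adjusted p = 0.0233). The PSPH call was lost without any 1 of the 3 +Asn libraries (adjusted p = 0.0625, 0.0585 and 0.0637 without replicates 1, 2 and 3) or without -Asn+Fe replicate 2 or 3 (0.0624 and 0.0685). The PSAT1 call was lost with centred libraries (adjusted p = 0.068) and without +Asn replicate 1 or 3 (0.0539 and 0.0946), -Asn replicate 3 (0.0566), or -Asn+Fe replicate 1 or 2 (0.111 and 0.1). Other settings added calls: MTHFD1's region was narrower with centred libraries (log2 -0.20, adjusted p = 0.0108), and MTHFD2's was wider without -Asn replicate 1 or 2 (0.0106 and 0.0460). The 2 added regions were wider in -Asn+Fe, by 0.43 at PHGDH (adjusted p = 0.00222) and 0.62 at the inner PSPH region (adjusted p = 3.92e-04) on the log2 scale.

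The genes around the 9 enzymes were described from lists chosen for their place in the pathway. In -Asn against +Asn the counts below stand beside 31% of all genes tested called higher and 30.2% called lower, with a median log2 of 0.04. Of 8 tested genes of folate uptake and reduction 5 fell and 1 rose (median log2 -1.09). SLC19A1, the reduced folate carrier, was at 14.1 CPM in -Asn, against 55.5 CPM in +Asn (log2 -1.98, adjusted p = 3.13e-11). GGH, which trims polyglutamate from folate, averaged 51.2 and 147 CPM in the same 2 media (log2 -1.52). Among other folate enzymes 5 of 7 fell and 1 rose (median log2 -0.34), led by TYMS, thymidylate synthase (log2 -1.27), and by GART and ATIC, of purine synthesis (log2 -1.07 and -0.81).

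In the same comparison, where 31% of all genes were called higher and 30.2% lower, 5 of 6 genes of the methionine cycle and transsulfuration fell in -Asn and 0 rose (median log2 -0.59), among them AHCY, which clears S-adenosylhomocysteine (log2 -1.09), MAT2A, which makes S-adenosylmethionine (log2 -0.81), and MTR, methionine synthase (log2 -0.70). In glycine cleavage and serine or glycine breakdown 2 of 9 rose and 3 fell (median log2 -0.03), shares near those of all genes. Among those that fell were GLDC, the glycine decarboxylase of the cleavage system (log2 -1.22), and DLD (log2 -0.51, or -0.30 with library totals). The 2 that rose had low levels. AMT, with 39 counts in all in -Asn and 8 in +Asn, entered the test only through starved libraries. SDSL averaged 3.36 CPM in -Asn and 0.541 CPM in +Asn. Of 7 serine carriers 3 rose and 2 fell (median log2 0.23), also near the shares of all genes. SFXN1 and SFXN2, of the sideroflexin family whose member SFXN1 brings serine into mitochondria, fell (log2 -1.25 and -1.34), and SFXN3 rose (log2 0.80). Of 5 regulators known to act on these enzymes 3 rose and 1 fell (median log2 1.02): NFE2L2 (log2 1.10), CEBPG (log2 1.07) and ATF4 (log2 1.02) rose. MYC fell (log2 -0.52, edgeR adjusted p = 6.93e-06), and KDM4C did not pass the test (log2 0.10, adjusted p = 0.304).

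**Figure D5:**
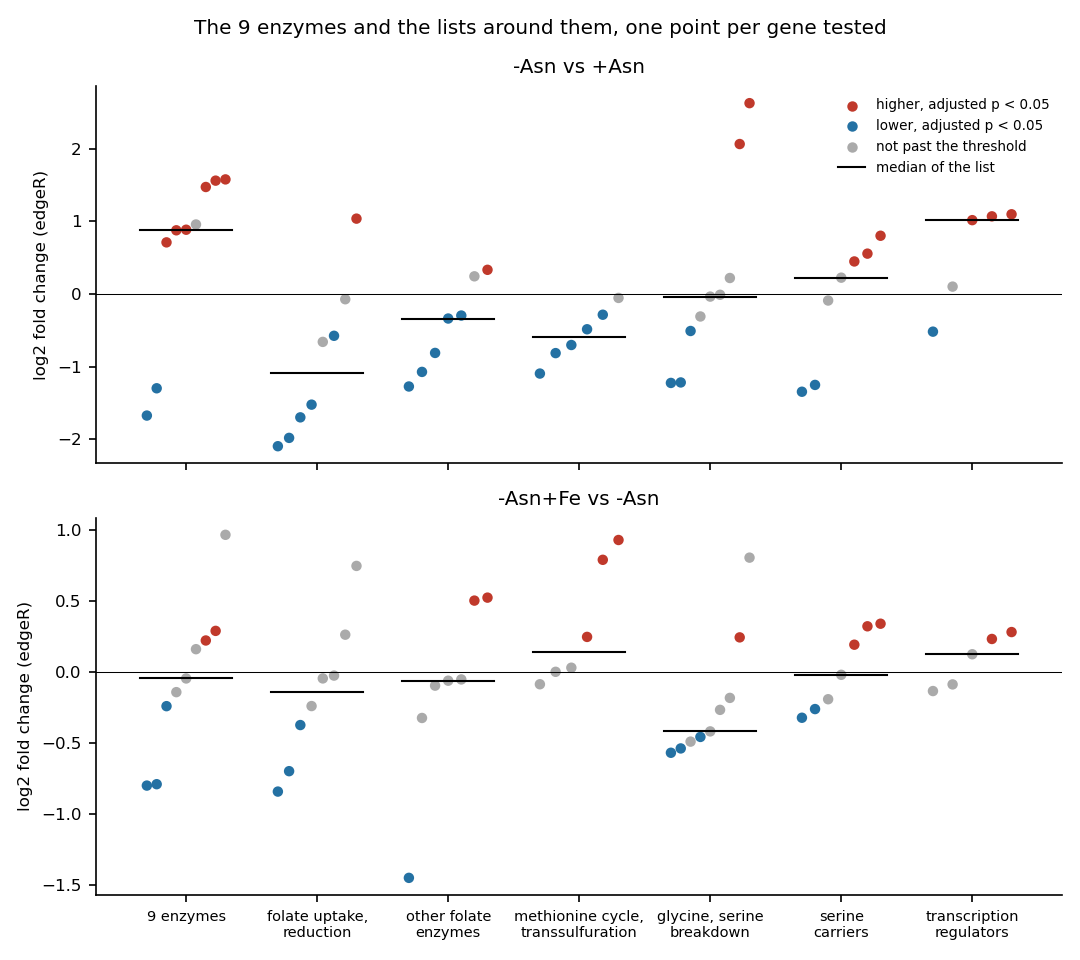
log2 fold change (edgeR) of each tested gene of the 9 enzymes and of the 6 lists around them, for -Asn over +Asn above and -Asn+Fe over -Asn below, with the list's median as a line. In the upper panel the median is 0.89 for the 9 enzymes and -1.09 for folate uptake and reduction.

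With iron in starved cells, where 14% of all genes tested were called higher and 16.8% lower, 3 of 8 genes of folate uptake and reduction fell and 0 rose, among them GGH (log2 -0.70) and FPGS, which adds polyglutamate to folate (log2 -0.38). TYMS averaged 77.6 CPM in -Asn+Fe and 212 CPM in -Asn (log2 -1.45, adjusted p = 2.28e-09), the 1 of 7 other folate enzymes that fell, while 2 rose, among them MTHFD2L, a second mitochondrial methylene-tetrahydrofolate dehydrogenase (log2 0.52). In the methionine cycle and transsulfuration 3 of 6 rose and 0 fell. MAT2A averaged 636 CPM in -Asn+Fe, 368 CPM in -Asn and 646 CPM in +Asn, a log2 fold change of 0.79 between -Asn+Fe and -Asn (adjusted p = 2.51e-07), and MTRR, which reactivates methionine synthase, rose by 0.25. The MTRR call was lost without -Asn replicate 2 (adjusted p = 0.0786) or -Asn+Fe replicate 1 or 3 (0.0878 and 0.0758). In glycine cleavage and breakdown 1 of 9 rose (DLD, log2 0.24, lost without -Asn+Fe replicate 1 at an adjusted p of 0.0564) and 3 fell, including SRR, serine racemase (log2 -0.57), and GLDC (log2 -0.46). Of the serine carriers 3 rose and 2 fell of 7, with log2 fold changes of 0.34 for SLC38A2, 0.32 for SLC38A1 and -0.32 for SFXN2. Without -Asn replicate 1, the library that stood apart, those of SLC38A2 and SLC38A1 were 0.22 and 0.17 (adjusted p = 0.00542 and 0.0117). The SLC38A2 call was lost without -Asn+Fe replicate 1 or 3 (0.0679 and 0.0624), and the SFXN2 call without -Asn replicate 2 or -Asn+Fe replicate 3 (0.0675 and 0.0633). The SLC38A1 call was lost without +Asn replicate 2 or 3 (0.0538 and 0.0581) or any 1 of the -Asn+Fe libraries (0.106, 0.0757 and 0.0871 without replicates 1, 2 and 3). Of the 5 regulators 2 rose, NFE2L2 (log2 0.28) and KDM4C (log2 0.23, adjusted p = 0.0469). The KDM4C call was lost in most of the alternatives, with a log2 fold change of 0.14 without -Asn replicate 1 (adjusted p = 0.0877). ATF4, CEBPG and MYC did not pass the test (log2 -0.09, 0.12 and -0.14, edgeR adjusted p = 0.485, 0.153 and 0.154).

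The 9 genes fell into different patterns over the 9 libraries. As the root mean square difference of log2 CPM after centring each gene, PSAT1 and PSPH were 0.102 apart, PHGDH and MTHFD1L also 0.102, and SHMT1 and MTHFD1 0.237, while PSAT1 and SHMT1 were 1.81 apart. ALDH1L2 was left out because of its low counts. By the same measure over the 10104 genes averaging 5 CPM or more, the genes most like PHGDH were COPG1 (0.05002), FGD3 (0.0501) and YIPF2 (0.0534). Those most like PSAT1 were VLDLR (0.0862), ARFGAP3 (0.0879) and GNB5 (0.0928). Those most like SHMT2 were STX5 (0.0544), AL035696.4 (0.0560) and EIF1 (0.0588). Those most like MTHFD2 were MIA2 (0.0397), NARS (0.0444), the older symbol of the cytosolic asparaginyl-tRNA synthetase, and LINC00426 (0.0548).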

How the data were processed

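RNA was measured in 9 libraries and H3K4me3 in 9 libraries, 3 per medium, with groups and replicate numbers from the labels. The 3 input libraries have no values of their own here. For RNA the authors deposited unnormalised gene counts. The submitters' processing notes name hg38, STAR 2.7.2a and Subread 1.6.5. Strand and multi-mapping settings were not found in the sources. The H3K4me3 table that the authors deposited holds positions of calls merged into 19279 regions, and the submitters' processing notes name MACS2 2.2.7.1 with Bowtie2 2.4.4 and Picard 2.18.26. It has 13 fields under 12 names, and the last 9 were read as the libraries, with the columns named untreated taken as complete medium.

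Gene counts went into R 4.3.3 and edgeR 4.0.16 (TMM, filterByExpr with a minimum count of 10, robust quasi-likelihood fit of all 9 libraries, Benjamini-Hochberg adjustment over 17939 genes). All 9 enzymes passed the filter. Widths, the bases covered in a region, were compared as log2 values by limma 3.58.1 (trend) over 13883 regions called in all libraries. Both tests were also tried on simulated data. Motif letters came from RefSeq promoter windows. Alternatives were DESeq2 1.42.0, RLE or upper-quartile factors, library totals, 2 other low-count filters, glmTreat against 1.2-fold, only the media compared, the replicate block, centred or outer-span widths, and leaving out each library. Python 3.11.15 with pandas 2.3.3, scipy 1.17.1 and matplotlib 3.10.9 did the rest.

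The enzymes, lists and tests were chosen with earlier results of these data known. Named genes of a list are up to 3 called genes per comparison with the largest change and a mean of at least 5 CPM, and for PHGDH, PSAT1, SHMT2 and MTHFD2 the 3 genes closest in pattern. The remaining regulators are named beside these. CCT6A, WASHC4, AC137834.2, the 2 added H3K4me3 regions and the CCAAT letters were chosen after the data were seen. Some genes that this rule names are not reported here.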

Additional observations from a re-analysis of the deposited data

How the results depend on the processing

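The calls of the 9 enzymes were steadier in the comparisons with +Asn than between -Asn+Fe and -Asn. For -Asn against +Asn 8 enzymes were called without any 1 library (8 to 8), for -Asn+Fe against +Asn 8 to 9, and for -Asn+Fe against -Asn 3 to 6; glmTreat against a 1.2-fold change called 2 there, against 5. Regions called in width without 1 library numbered 1 to 3 for -Asn against +Asn, 1 to 4 for -Asn+Fe against +Asn, and 0 for -Asn+Fe against -Asn. With library totals the median log2 fold change of all genes for -Asn against +Asn was 0.25, against 0.04, with 7343 genes called higher and 3836 lower, against 5558 and 5413. Upper-quartile factors gave 0.20 with 6904 and 4222. For -Asn+Fe against -Asn those 2 scalings called 3023 and 2487, and 3196 and 2419, against 2506 and 3019; for -Asn+Fe against +Asn 8066 and 3984, and 7672 and 4255, against 5893 and 5716.

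Small uncalled differences changed sign, and the cause was not tested. PHGDH RNA, -Asn+Fe against -Asn, was at a log2 fold change of 0.0065 with upper-quartile factors, 0.0021 with library totals and 0.0043 with the stricter filter, and at -0.0908 to 0.0440 without 1 library. Centred widths, -Asn against +Asn, gave log2 differences of -0.0697 for SHMT1, -0.0392 for MTHFD1L and -0.0475 for ALDH1L2. Centred widths, -Asn+Fe against +Asn, gave -0.0081 for MTHFD1L and -0.0512 for ALDH1L2. PSAT1's width, -Asn+Fe against -Asn, was 0.0022 centred and 0.0311 by outer span. Without 1 library, width differences for -Asn against +Asn were -0.0691 to 0.0996 for SHMT1 and -0.0563 to 0.0080 for MTHFD1, and -0.0122 to 0.0574 for ALDH1L2 in -Asn+Fe against +Asn. For -Asn+Fe against -Asn they were -0.0242 to 0.0306 for MTHFD1L, -0.154 to 0.0351 for MTHFD2, -0.0450 to 0.0198 for PSAT1, -0.103 to 0.0271 for the inner PSPH region and -0.0226 to 0.0580 for SHMT2.

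Deviations of same-numbered RNA libraries from the mean of their medium correlated at r = 0.128, -0.0153 and 0.0538 between -Asn and +Asn. In the other comparisons r was between -0.147 and -0.00876. Of 6 libraries, 3 correlated best with their own number for -Asn against +Asn, and 0 in each other comparison. With the replicate number as a block, 8, 5 and 9 enzymes were called in RNA for -Asn against +Asn, -Asn+Fe against -Asn and -Asn+Fe against +Asn, and 3, 0 and 3 regions in width. In the last comparison the block ended the outer PSPH width call (adjusted p = 0.0532) and gave one for MTHFD2 (0.0386).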
